A study of Capra hircus with 12 samples.

Results

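The insulin and IGF receptor signalling genes examined here were INSR, IGF1R, IGF2R, IRS1 and FOXO3, 5 of the 15810 genes listed for all 12 libraries. They were taken by name from the count tables. INSR (gene ID 102168996), IGF2R (100860744), IRS1 (102184858) and FOXO3 (102188676) carry these names in the tables. The tables name gene ID 100861165 IGF-IR, and RefSeq gives that ID the symbol IGF1R, so it was matched by ID. The tables place INSR on sequence NC_022299.1 from 12566808 to 12694180 and IGF1R on NC_022313.1 from 5901461 to 6146644. IGF2R lies on NC_022301.1 from 82405022 to 82473356, FOXO3 on the same sequence from 28581716 to 28702848, and IRS1 on NC_022294.1 from 114372958 to 114436680. The tables do not name the build, and each span is a whole gene.

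The libraries came from RNA of mammary gland biopsies of lactating female goats (Capra hircus), taken after glucose had been infused into the gland. The labels give the treatment as a low, middle or high dose, with 4 libraries each, and strain, age, numeric doses and biopsy time were not analysed here. Every library is labelled with a dose of glucose and none as a control without it, so each comparison is between doses. Nothing in the labels assigns the 4 libraries of a dose to separate goats, and a p-value here measures the spread between samples only, part of which may be technical.

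Insulin and IGF-1 bind receptor tyrosine kinases, encoded by INSR and IGF1R, which phosphorylate adaptor proteins such as IRS1. IRS1 recruits PI3-kinase, which activates AKT, and AKT keeps FOXO transcription factors such as FOXO3 out of the nucleus. IGF2R, the cation-independent mannose-6-phosphate receptor, has no kinase domain and carries IGF-2 and lysosomal enzymes into endosomes. In the mammary gland IGF-1 is known as a growth and survival factor of the epithelium, and insulin as a hormone needed for milk protein synthesis.

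Total counts ranged from 9555072 to 12716883 per library, and each member had 219 to 3757 reads in each library, so all 5 passed the filter on low counts. Milk protein transcripts took a very different part of each library. The share was 2.18 to 13.7% at the low dose. Middle-dose replicates 1, 2 and 4 held 52.0, 57.7 and 58.9%, and replicate 3 held 3.44%. At the high dose the share was 7.48, 42.1, 8.83 and 21.2% in replicates 1 to 4. Levels below are CPM, read counts relative to library size, after TMM scaling, and are compared within a gene only. TMM scaling sets libraries on a common scale through the bulk of genes. On this scale the beta-casein gene CSN2 had 22664 ± 20259, 429450 ± 292382 and 113499 ± 133957 CPM (SD, n = 4) in order of dose. The alpha-lactalbumin gene LALBA had 960 ± 1244, 44693 ± 30460 and 8981 ± 12529 CPM. These values are not shares of reads. The TMM factor was 0.612, 0.521 and 0.514 in middle-dose replicates 1, 2 and 4, which raises their CPM above the share. The tables came in 2 layouts, the larger with 16030 genes (low-dose replicate 3, middle-dose replicate 1, and replicates 1 and 4 of the high dose) and the smaller with 15991 genes (8 libraries). In bulk tissue, fewer cells of a type and less RNA per cell cannot be told apart.

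The members showed 3 patterns. FOXO3 and IRS1 had their highest means at the middle dose and their lowest at the low dose. INSR and IGF1R did not follow the dose, and varied together from library to library. IGF2R varied least. By edgeR's quasi-likelihood test with Benjamini-Hochberg adjustment over 13624 genes, 0 of the 5 passed an adjusted p of 0.05 in any comparison of doses, and 0% of all genes did.

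**Figure D1:**
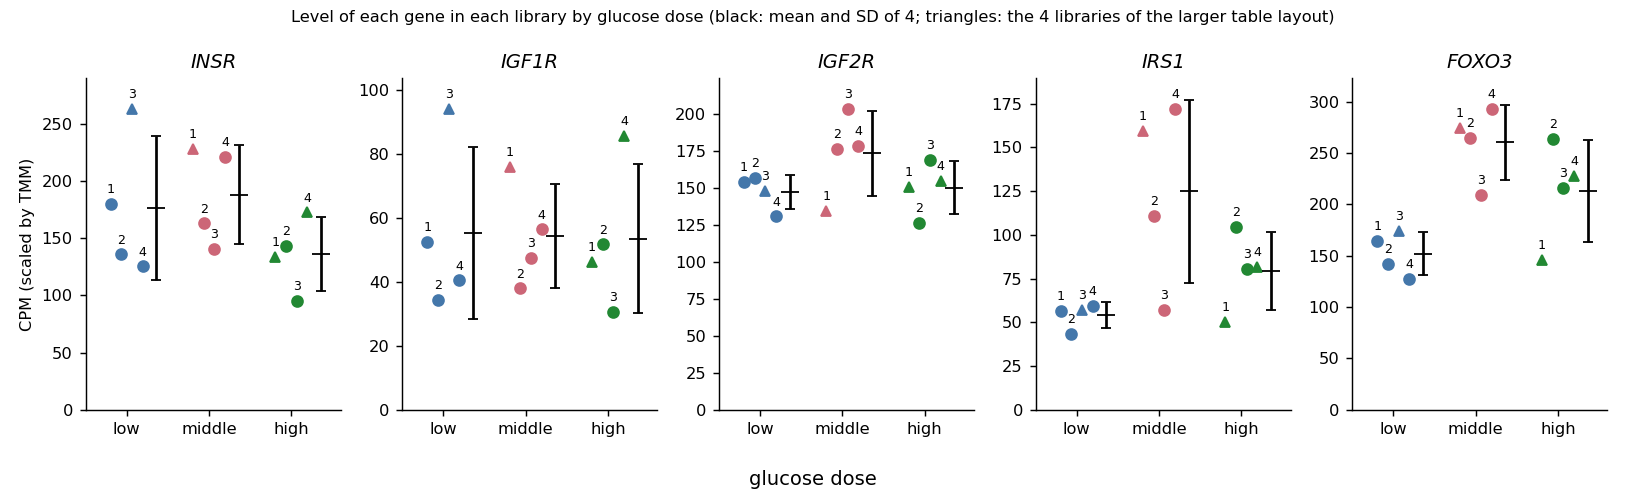
CPM (y axis, from 0) of each gene in each library, grouped by glucose dose (x axis), with replicate numbers beside the points, the mean and SD of 4 libraries in black, and triangles for the 4 libraries of the 16030-gene layout. All middle-dose FOXO3 values (209 to 293 CPM) lie above all low-dose values (127 to 174 CPM), whereas the IGF1R values of the 3 doses overlap.

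FOXO3, the transcription factor at the far end of the pathway, had the clearest separation. Its levels were 165, 142, 174 and 127 CPM in low-dose replicates 1 to 4. At the middle dose they were 274, 265, 209 and 293 CPM, and at the high dose 146, 264, 216 and 227 CPM. The lowest middle-dose library thus stood above the highest low-dose library, and high-dose replicate 1 alone of its dose fell within the low-dose range. The means were 152 ± 21.3 CPM (SD, n = 4) with the low, 213 ± 49.4 with the high and 260.3 ± 36.2 with the middle dose. The middle dose was 1.71-fold above the low dose (log2 0.77 ± 0.19 SE, 95% interval 0.35 to 1.19, edgeR adjusted p = 0.0746). A full separation of these 2 doses in this direction was seen for 5.93% of all genes. The high dose was 1.40-fold above the low dose (log2 0.49 ± 0.19, edgeR adjusted p = 0.396). The high and middle doses, neighbours in that order, overlapped (log2 -0.29 ± 0.19, interval -0.71 to 0.13).

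IRS1, the adaptor that links both receptors to PI3-kinase, differed most in size and least evenly. Low-dose replicates 1 to 4 lay close together at 56.5, 43.3, 57.1 and 59.5 CPM. At the middle dose the values were 159, 111, 57.3 and 172 CPM, so replicate 3 sat among the low-dose libraries and the other three were far above them. High-dose values were 50.3, 104, 80.7 and 81.6 CPM, with replicate 1 inside the low-dose range. The means were 54.1 ± 7.31 CPM (SD, n = 4) with the low, 79.2 ± 22.2 with the high and 125 ± 52.3 with the middle dose. The middle dose was 2.30-fold above the low dose (log2 1.20 ± 0.31 SE, interval 0.53 to 1.88, edgeR adjusted p = 0.0766). The high dose stood between, at log2 0.55 ± 0.31 above the low dose (edgeR adjusted p = 0.490) and -0.66 ± 0.31 from the middle dose (adjusted p = 0.342).

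At unadjusted p under 0.05, IRS1 and FOXO3 were the 2 of 5 members in the middle against low comparison, where 23.7% of all genes reached that level. FOXO3 was the 1 of 5 in high against low, against 11.5% of all genes, and 0 of 5 reached it in high against middle, against 14.9%. When the middle dose was set against both others averaged, these 2 again reached it (IRS1 log2 0.93 ± 0.26, edgeR adjusted p = 0.0974; FOXO3 0.53 ± 0.16, adjusted p = 0.112), against 21.9% of all genes. The test of any difference between doses gave the same 2, against 21.4% of all genes. These tests share their libraries with the ones above and are no independent evidence.

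The calls for IRS1 and FOXO3 depended on the tool and on 1 library. DESeq2 called both in middle against low (adjusted p = 0.00749 for IRS1 and 0.00516 for FOXO3), where it called 10.3% of all genes. Limma voom with quality weights for each library also called both (adjusted p = 0.00190 and 0.00197), where it called 34.5%. Without middle-dose replicate 3, the library of that dose with few milk transcripts, edgeR called both (log2 1.45 ± 0.24, adjusted p = 0.00702, and 0.87 ± 0.20, adjusted p = 0.0169) and 17.3% of all genes. In the middle dose against both others, DESeq2 called 7.71% of all genes, limma voom 26% and edgeR without that library 15.7%, and in the test of any difference 8.21%, 28.2% and 9.34%. IRS1 and FOXO3 were the 2 members called each time. In high against low (0.418, 0 and 0% of all genes) and high against middle (2, 2.45 and 3.66%) each called 0 members.

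**Figure D2:**
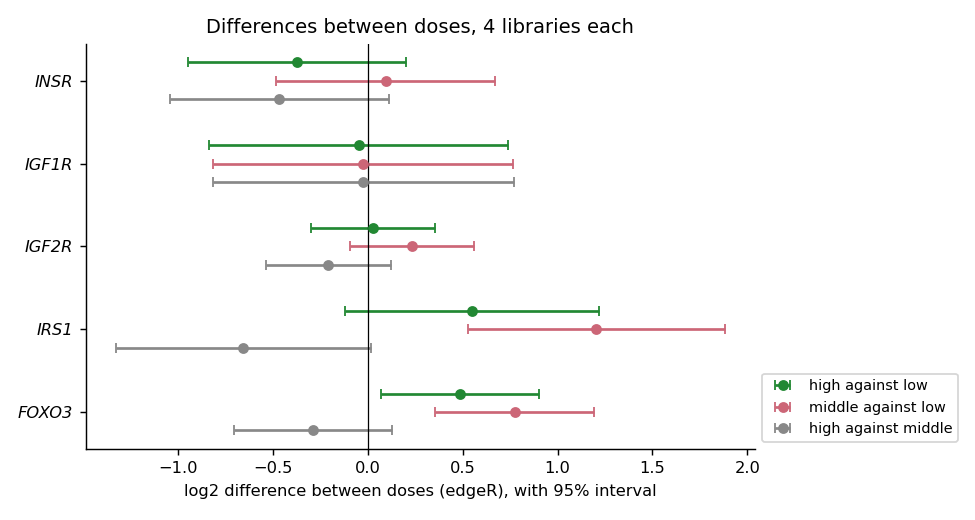
Log2 difference between doses (x axis) for each gene (y axis) with its 95% interval from the edgeR fit, 4 libraries per dose. For middle against low the IRS1 interval runs from 0.53 to 1.88 and the FOXO3 interval from 0.35 to 1.19, whereas every IGF1R interval spans 0.

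The levels of IRS1 and FOXO3 were highest in the libraries richest in milk transcripts, and the part of this in the dose difference was not tested. The 4 libraries with over 40% milk protein reads, replicates 1, 2 and 4 of the middle dose with replicate 2 of the high dose, held the 4 highest values of both genes. Within the libraries of low milk share, middle-dose replicate 3 (3.44%) had 209 CPM of FOXO3, above the 127 to 174 CPM of the low-dose libraries, and 57.3 CPM of IRS1, inside their range of 43.3 to 59.5 CPM. High-dose replicate 1, with 7.48% of milk reads, had 146 CPM of FOXO3 and 50.3 CPM of IRS1. High-dose replicate 3, with 8.83%, less than low-dose replicates 3 and 4, had 216 CPM of FOXO3 and 80.7 CPM of IRS1, both above every low-dose library. These are single libraries, in which the parts of dose and milk share cannot be told apart. Without scaling, IRS1 had 620 to 1147 reads in the 12 libraries, or 57.7 to 97.4 CPM without TMM scaling, with means of 73.0 ± 9.60, 80.5 ± 17.1 and 82.8 ± 10.3 (SD, n = 4) at the low, middle and high dose. In CPM of the reads other than those of milk proteins, IRS1 stood at 79.4 ± 11.4, 159 ± 62.3 and 107 ± 25.0, and FOXO3 at 223 ± 32.6, 335 ± 30.1 and 288 ± 54.3. On that scale the middle-dose FOXO3 values (297 to 367) lay above all low-dose values (186 to 253). The libraries are the same, so this is no independent evidence. The share of all genes separated on that scale was not computed.

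The scaling therefore sets what is said of these genes. By library size alone the median gene was -0.86 on the log2 scale at the middle against the low dose. FOXO3 was then at -0.15 and IRS1 at 0.14, which is 0.71 and 1.00 above that median. INSR and IGF1R, at -0.84 and -0.88, were 0.02 and -0.03 from it. FOXO3 at the middle dose was thus higher relative to the bulk of genes in the same libraries, and not in its share of all reads. At the high against the low dose, library size alone gave 0.12 for FOXO3 and 0.18 for IRS1.

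INSR, the insulin receptor, had its lowest mean at the high dose, but every 95% interval between doses spanned 0. It stood at 180.0, 136, 263 and 125 CPM in low-dose replicates 1 to 4 and at 228, 163, 140.4 and 221 CPM at the middle dose. High-dose values were 134, 143, 94.8 and 172 CPM. The highest of the 12 was low-dose replicate 3 and the lowest high-dose replicate 3, and every pair of doses overlapped. The means were 136 ± 32.0 CPM (SD, n = 4) at the high dose, 176 ± 62.7 at the low dose and 188 ± 43.0 at the middle dose, and no neighbours in this order differed beyond their spread. The high dose differed from the low dose by log2 -0.37 ± 0.26 (interval -0.95 to 0.20, edgeR adjusted p = 0.583) and from the middle dose by -0.47 ± 0.26 (interval -1.04 to 0.11, adjusted p = 0.417). The middle dose differed from the low dose by 0.09 ± 0.26 (interval -0.48 to 0.67).

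IGF1R, the IGF-1 receptor, had nearly equal means at the 3 doses and the largest biological coefficient of variation of the 5 (0.368). Low-dose replicates 1 to 4 had 52.5, 34.5, 94.3 and 40.5 CPM, and middle-dose replicates 76.0, 38.0, 47.5 and 56.4 CPM. High-dose replicates had 46.4, 51.8, 30.5 and 85.7 CPM. At the low and the high dose 1 library stood well above the rest, and the middle-dose values were spread more evenly. The means were 55.4 ± 27.0, 54.5 ± 16.2 and 53.6 ± 23.2 CPM (SD, n = 4) at the low, middle and high dose. The differences were log2 -0.05 ± 0.36 for high against low, -0.03 ± 0.36 for middle against low and -0.02 ± 0.36 for high against middle. Their 95% intervals were -0.84 to 0.74, -0.82 to 0.77 and -0.81 to 0.77, wide enough that a difference well inside them was not detectable with these libraries.

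Both receptor kinases peaked in the same library of each dose. This was low-dose replicate 3, middle-dose replicate 1 and high-dose replicate 4, and high-dose replicate 3 was lowest for both. Over the 12 libraries Pearson's r between INSR and IGF1R was 0.82 on log2 CPM, and 0.92 after the mean of each dose was removed. The libraries share their scaling, which enters both genes. A ratio within a library is free of that scaling. IGF1R had 25.4 to 35.8 reads per 100 INSR reads at the low dose, 23.3 to 33.8 at the middle dose and 32.2 to 49.7 at the high dose. The ranges of the low and middle doses overlapped, and high-dose replicate 4 had the highest value.

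The 3 libraries in which both receptors peaked were all of the 16030-gene layout. In the 4 libraries with it IGF1R ranged from 46.4 to 94.3 CPM and in the other 8 from 30.5 to 56.4 CPM. For INSR the ranges were 134 to 263 and 94.8 to 221 CPM. In the fit of dose with layout, whose layout term was read only after the data had been seen, IGF1R was log2 0.83 ± 0.21 higher in the layout of 4 libraries (edgeR adjusted p = 0.321) and INSR 0.52 ± 0.18 higher (edgeR adjusted p = 0.365). IGF2R (-0.11 ± 0.14), IRS1 (-0.00 ± 0.28) and FOXO3 (-0.03 ± 0.17) showed no such difference beyond their SE. No gene of the 13624 passed for layout. The labels do not mention the layouts, and what else differed between these libraries was not tested.

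**Figure D3:**
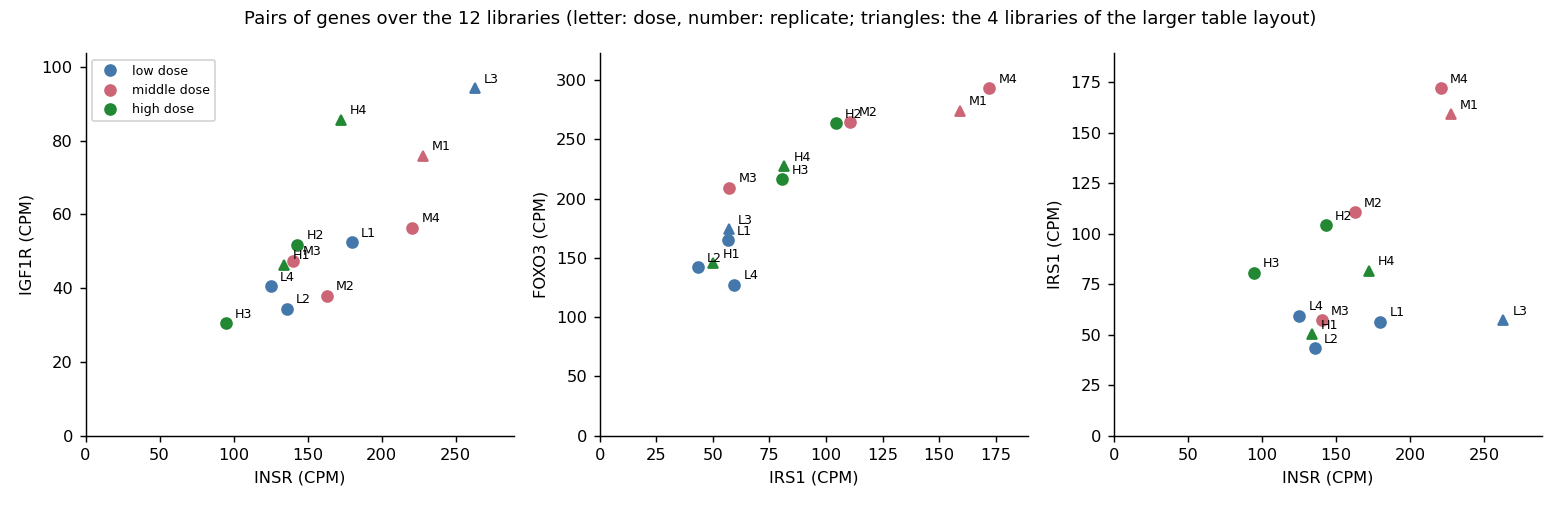
CPM of 1 gene against another in the 12 libraries (letters L, M and H for low, middle and high dose, numbers for replicates, triangles for the 16030-gene layout). Low-dose replicate 3 is highest in both INSR and IGF1R, middle-dose replicates 1 and 4 are highest in both IRS1 and FOXO3, and low-dose replicate 3 has 263 CPM of INSR with 57.1 CPM of IRS1.

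IRS1 and FOXO3 formed the other pair, with r = 0.89 over the 12 libraries and 0.77 within doses. INSR and IRS1, receptor and substrate, had r = 0.39, and 0.46 within doses. INSR and FOXO3 had r = 0.33, and 0.53 within doses. How often other pairs of genes reach such values was not computed. Low-dose replicate 3 had the most INSR (263 CPM) with only 57.1 CPM of IRS1. Per 100 INSR reads in the same library, IRS1 had 21.7 to 47.5 reads at the low dose, 40.8 to 78.0 at the middle dose and 37.6 to 85.1 at the high dose. FOXO3 had 66.2 to 105, 120.4 to 163 and 109 to 228 reads per 100 INSR reads. All 8 libraries of the middle and high doses therefore lay above all 4 low-dose libraries in FOXO3 reads per INSR read, a measure that needs no scaling. The margin was narrow, with 108.8 in high-dose replicate 1 against 104.8 in low-dose replicate 2. In FOXO3 alone that high-dose library lay inside the low-dose range, so the separation rests on INSR too. Chosen after its values were seen, the ratio carries no test, and how often other gene ratios separate in this way was not computed.

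IGF2R, which clears IGF-2 and sorts lysosomal enzymes, was the steadiest member. It had 154, 157, 148 and 131 CPM at the low dose, 135, 176, 204 and 179 CPM at the middle dose and 151, 126, 169 and 155 CPM at the high dose. All values lay within 1.61-fold of each other, against 3.97-fold for IRS1 and 3.09-fold for IGF1R. Its estimated biological coefficient of variation was 0.189, at percentile 13.1 of the genes tested, beside 0.223 for FOXO3, 0.284 for INSR, 0.318 for IRS1 and 0.368 for IGF1R. The means were 147 ± 11.6, 150.2 ± 17.8 and 173 ± 28.6 CPM (SD, n = 4) at the low, high and middle dose. The differences were log2 0.03 ± 0.15 for high against low (interval -0.30 to 0.35) and 0.23 ± 0.15 for middle against low (interval -0.09 to 0.56, edgeR adjusted p = 0.357). The middle dose had both the highest value, in replicate 3, and one of the lowest, in replicate 1. Its r with the other members was between -0.25 and 0.22, and within doses between -0.61, with IRS1, and -0.26, with FOXO3.

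The genes whose log2 CPM ran most like each member over the 12 libraries were ranked among 11688 others with a symbol, as a description without a test. For INSR these were SLC3A2, the heavy chain of amino acid transporters (r = 0.97), PNKD (0.95) and the membrane skeleton gene ADD1 (0.94). For IGF1R they were the ephrin ligand gene EFNA1 (0.96), RAB24 (0.95) and CCDC93 (0.94). IRS1 was closest to ACTR8 (0.98), MYO9A (0.97) and the ceramide transfer gene COL4A3BP (0.97), and FOXO3 to LMTK2 (0.95), the elongation factor gene SUPT5H (0.95) and RNF185 (0.94). IGF2R had no comparably close gene, with MSL3 (0.82), WDR27 (0.80) and the splicing factor gene SNRNP200 (0.78) at the top.

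Of 90 other genes of the pathway, 80 could be tested, and 0 passed an adjusted p of 0.05 by edgeR in any comparison. At unadjusted p under 0.05 there were 19 in middle against low (13 higher, 6 lower; 23.7% of all genes did so), 10 in high against low (11.5% of all genes) and 11 in high against middle (14.9%). Their median log2 difference was 0.05 in middle against low and 0.02 in high against low, beside -0.03 in each for all genes. DESeq2 called 9 of them in middle against low, where it called 10.3% of all genes, and limma voom 28, where it called 34.5%. These counts were close to the shares over all genes. GRB10, CAV1, AKT1, PIK3CD, TRIB3, CITED2 and ATG12, described next, were called in middle against low by both and by edgeR without middle-dose replicate 3, and GADD45A by both.

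Among ligands and binding proteins 13 of 16 genes were tested, and 11 had lower estimates at the middle than at the low dose (median log2 -0.31), beside 47.4% of all genes with higher ones. At p under 0.05 there were 2 lower and 1 higher, close to the 23.7% of all genes. IGF1, which encodes the ligand of IGF1R, had 18.2 to 116 CPM at the low dose, 10.9 to 52.4 at the middle dose and 22.9 to 166 at the high dose, with log2 -0.91 ± 0.75 for middle against low, and -0.041 without low-dose replicate 4 or -1.54 without middle-dose replicate 3. IGF2 had the opposite sign, with 33.0 ± 4.84 CPM with the middle, 23.8 ± 6.13 with the low and 22.6 ± 3.02 with the high dose (SD, n = 4). All 4 middle-dose IGF2 values (28.9 to 39.7 CPM) stood above all high-dose values (19.8 to 25.6 CPM), with log2 -0.54 ± 0.19 for high against middle and an edgeR adjusted p = 0.263, but 0.062 by library size alone. That order was seen for 2.61% of all genes. IDE, the protease that degrades insulin, was higher in every high-dose library (71.2 to 103 CPM) than in any middle-dose library (49.3 to 67.1 CPM; adjusted p = 0.254), as 3.33% of genes were. IGFBP3, the main carrier of circulating IGF, stood at 144 ± 117 CPM at the low dose and 66.2 ± 17.6 at the middle dose (log2 -1.13 ± 0.46). Low-dose replicate 4 had 319.9 CPM and the other low-dose libraries 71.2 to 99.5 CPM, and without it the difference was log2 -0.38 ± 0.30. IGFBP5 was at log2 -0.39 ± 0.40.

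Among 18 tested adaptors and receptor regulators, 8 had higher and 10 lower estimates at the middle than at the low dose (median log2 -0.01). GRB10, an adaptor that binds the activated insulin and IGF receptors and restrains them, had 40.8 to 49.4 CPM at the low dose and 41.2 to 50.7 at the high dose. At the middle dose it had 75.0, 87.4, 54.5 and 71.9 CPM, all above both other doses, an order seen for 5.93% of genes against the low and 2.61% against the high dose. Its log2 difference was 0.71 ± 0.15 for middle against low (edgeR adjusted p = 0.0735) and 0.67 ± 0.13 for the middle against the average of both others (adjusted p = 0.0634). CAV1, the caveolin of membrane pits in which insulin receptors gather, was also apart, at 364 ± 15.3 CPM at the middle dose beside 250.2 ± 39.6 at the low and 250.5 ± 30.8 at the high dose (SD, n = 4; adjusted p = 0.0825 for middle against low). By library size alone, where the median gene was at -0.86, GRB10 was at -0.23 and CAV1 at -0.32 in middle against low. Endothelial cells are rich in CAV1, and 5 endothelial markers summed to 584 to 1240 CPM at the middle dose, 561 to 756 at the low dose and 598 to 801 at the high dose. Their part in the CAV1 level was not tested. SOCS3, a feedback inhibitor of cytokine and insulin signalling, was low everywhere and ranged from 4.34 to 19.4 CPM at the high dose (log2 1.12 ± 0.51 against the low dose, and 0.59 without high-dose replicate 3).

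All 26 genes of the list of PI3-kinase, AKT and their inhibitors were tested. Of these 20 had higher estimates at the middle than at the low dose (median log2 0.24, 5 at p under 0.05 upward and 1 downward). Of all genes 47.4% were higher, and 23.7% reached that p in either direction. The list mixes activators and inhibitors, so this count gives no direction of the pathway. The PI3-kinase subunit genes went both ways, with PIK3CA at log2 0.23, PIK3R1 0.19, PIK3CB -0.15, PIK3R2 -0.72 and PIK3R3 -0.83, beside PIK3CD below. Inhibitors did too, as with TSC1 (0.48), TSC2 (0.30), PHLPP2 (-0.23) and TRIB1 (-0.67). AKT1, a kinase that phosphorylates FOXO3, had 22.8 to 31.4 CPM at the low dose and 51.5, 45.4, 26.8 and 47.9 CPM at the middle dose (log2 0.66 ± 0.21, edgeR adjusted p = 0.104). As with IRS1, middle-dose replicate 3 lay inside the low-dose range. By library size alone AKT1 was at -0.33. PIK3CD, the PI3-kinase catalytic subunit of leukocytes, was lower in every middle-dose library (4.68 to 17.0 CPM) than in any low-dose library (21.8 to 25.0 CPM), an order seen for 5.92% of genes, with log2 -1.06 ± 0.30 and an edgeR adjusted p = 0.0822. All high-dose values (13.1 to 17.7 CPM) were below the low dose too, as for 2.47% of genes. The 6 T cell markers summed to 46.0 to 93.6 CPM at the middle dose, 46.1 to 96.4 at the high dose and 114 to 193 at the low dose, and their part in PIK3CD was not tested. TRIB2, a pseudokinase, was 13.1 ± 2.31 CPM at the low and 20.6 ± 5.31 at the high dose (log2 0.65 ± 0.20, adjusted p = 0.386). TRIB3, a pseudokinase that binds AKT, was chosen after its values were seen. It had 0.769 to 3.29 CPM at the low dose and 14.7, 29.1, 0.512 and 12.6 CPM at the middle dose. Its log2 difference of 3.06 ± 1.01 (edgeR adjusted p = 0.111) was the largest in the list, but middle-dose replicate 3 lay below every low-dose library. High-dose values were 1.18 to 15.8 CPM (log2 2.29 ± 0.99 against the low dose, edgeR adjusted p = 0.413).

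**Figure D4:**
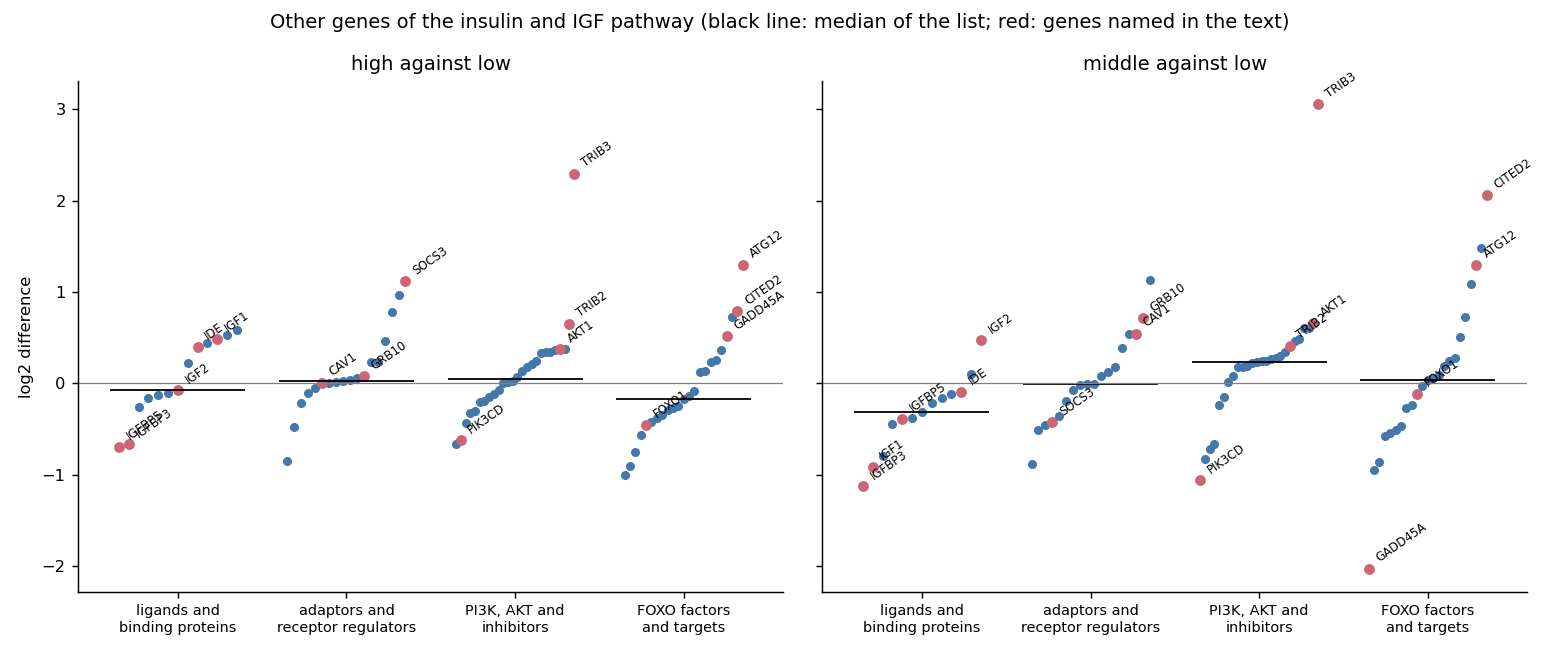
Log2 difference (y axis) of each other tested gene of the pathway, by list (x axis), for high against low and middle against low, with the median of each list as a black line and named genes in red. The list of PI3-kinase and AKT genes and their inhibitors has its median at 0.24 for middle against low, whereas the adaptors have theirs at -0.01.

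Among 23 tested FOXO factors and FOXO targets, 12 had higher and 11 lower estimates at the middle than at the low dose (median log2 0.04), 4 and 2 of them at p under 0.05, close to the 23.7% of all genes. Unlike FOXO3, FOXO1 was not highest at the middle dose. It had 161 ± 73.0, 148 ± 11.9 and 117 ± 34.1 CPM at the low, middle and high dose (SD, n = 4), with log2 -0.12 ± 0.28 for middle against low, and 0.23 without low-dose replicate 3. Targets went both ways. CITED2, a transcriptional co-regulator, had 391, 138, 61.8 and 402 CPM at the middle dose and 32.3 to 89.6 at the low dose (log2 2.06 ± 0.61, edgeR adjusted p = 0.0916), with replicate 3 inside the low-dose range. ATG12, an autophagy gene, was 242 ± 91.9 CPM at the middle and 98.4 ± 15.3 CPM at the low dose (log2 1.30 ± 0.41, adjusted p = 0.103), and all middle-dose values lay above all low-dose values, as for 5.93% of genes. At the high dose ATG12 was 241 ± 139 CPM (88.2 to 423 CPM), with log2 1.29 ± 0.41 against the low dose (edgeR adjusted p = 0.386). GADD45A, a growth arrest gene, was lower, with 3.46 to 11.6 CPM at the middle dose and 7.13 to 50.7 at the low dose (log2 -2.03 ± 0.72, adjusted p = 0.126).

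Marker genes checked the tissue. Of 7 luminal epithelial markers 5 were usable, and they summed to 2001 to 2780 CPM at the low dose, 3060 to 5279 at the middle dose and 2241 to 4530 at the high dose. In single genes 2 of the 5 had higher estimates at the middle than at the low dose. The 5 usable adipocyte markers summed to 3.91 to 30.7 CPM over all libraries, and LEP and CIDEC were at 0 in some. Fibroblast markers summed to 1735 to 6978 CPM at the middle dose, 2461 to 10072 at the high dose and 3289 to 19552 at the low dose. Macrophage markers summed to 179 to 226, 196 to 297 and 148 to 441 CPM at the middle, high and low dose, and myoepithelial markers to 903 to 1333, 1239 to 2260 and 1401 to 2046 CPM. Their part in the levels of the members was not tested.

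**Figure D5:**
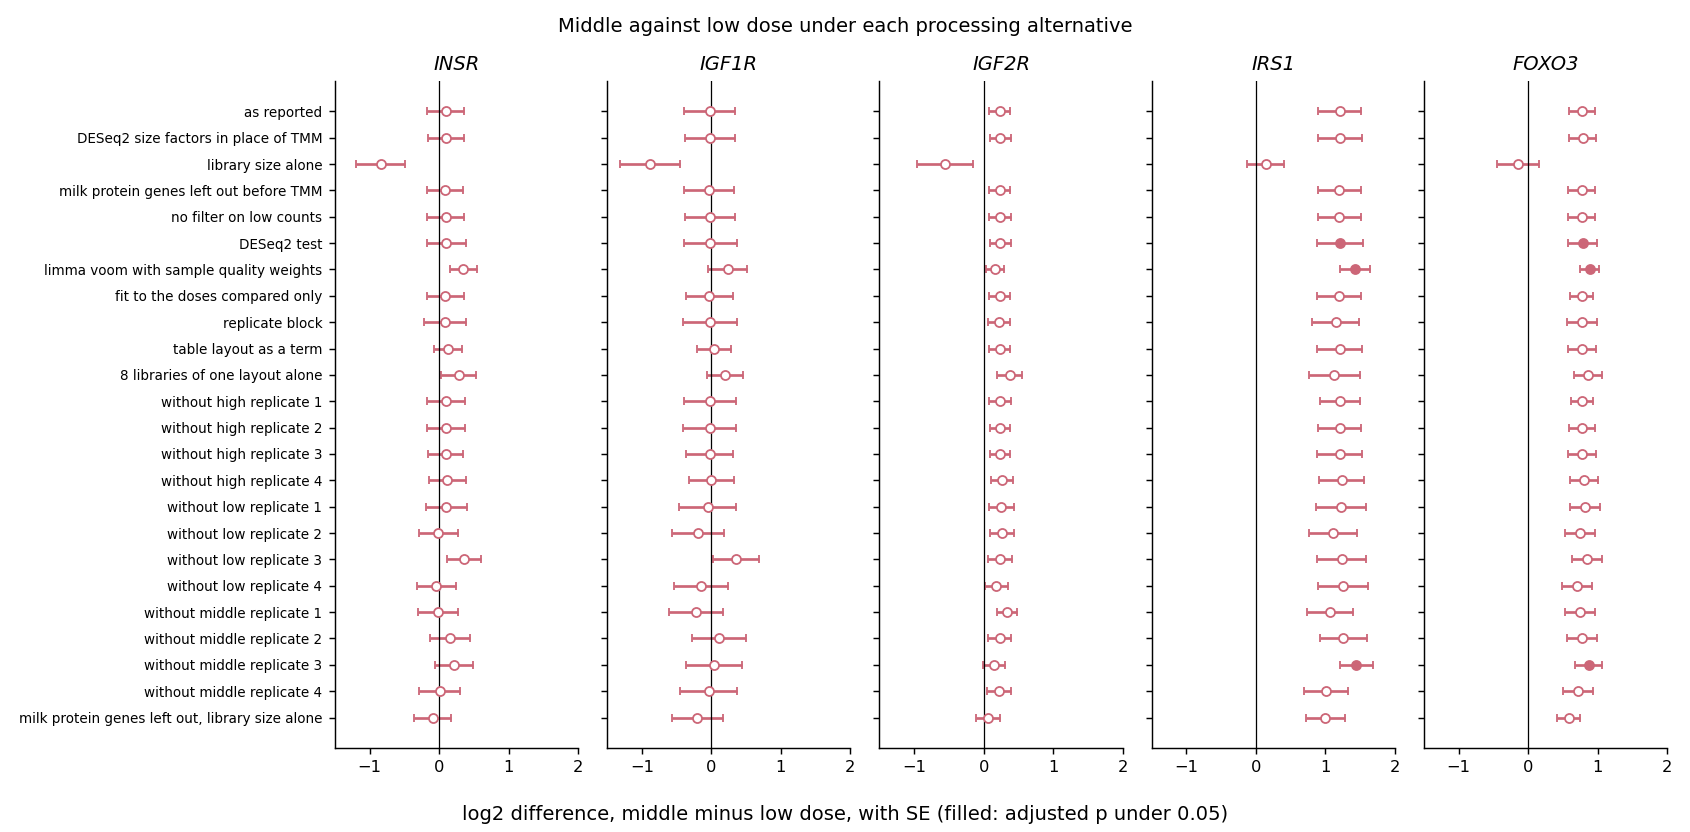
Log2 difference of each gene for middle minus low dose (x axis) with its SE under each processing alternative (y axis), filled where the adjusted p was under 0.05. IRS1 and FOXO3 stay to the right of 0 except FOXO3 by library size alone (-0.15), and their 3 filled points are DESeq2, limma voom and the fit without middle-dose replicate 3.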

How the data were processed

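The authors deposited unnormalized whole-number read counts per gene. Libraries were prepared by TruSeq, per the labels' protocols. Bowtie 0.12.2 and the mouse build mm8 are named in the submitters' processing notes, whereas the tables list goat gene IDs. For the counter, strand and goat build, the sources used here give nothing, so reads of overlapping or antisense genes cannot be told apart. The 15810 genes in all 12 tables were used, and 97.3% of their IDs matched RefSeq (ARS1.2), which was used only for names.

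Low counts were removed with filterByExpr (minimum count 10, total 15), which left 13624 genes. Counts were scaled by TMM (factors 0.514 to 1.50) and tested with edgeR 4.0.16 (quasi-likelihood) over all 12 libraries with dose as the factor, an adjusted p of 0.05 and R 4.3.3. Intervals of 95% use the SE of the fit. The prior count of log2 CPM was 2. Alternatives used DESeq2 1.42.0 and limma 3.58.1. The edgeR step was tested on simulated data. No 2 of the 12 libraries matched within sampling noise.

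The members and lists were chosen with earlier results of these data known. All members were described. From each list the 3 genes of smallest p in the test of any difference were named, with IGF1, IGF2, IGFBP3, IGFBP5, FOXO1, AKT1, CSN2 and LALBA always read; 1 further gene of that rule is not reported here. IRS2, also on that list, was not among the genes listed for all 12 libraries and so could not be tested. Numeric doses were not analysed here. KRT8 was left out because its name and ID disagree. Genes alike needed a mean log2 CPM of at least 1.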

Additional observations from a re-analysis of the deposited data

Results flagged for a closer look

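In 2 of 69 sets of 4 libraries, 1 library lay far from its 3 neighbours. Both concern IGFBP3, the IGF carrier. Low-dose replicate 4 had 319.9 CPM, beside 71.2 to 99.5 CPM in the other low-dose libraries. Middle-dose replicate 3 had 39.9 CPM, beside 74.2 to 76.0 CPM. Chance alone flags about 1 set in 20, and no set of INSR, IGF1R, IGF2R, IRS1 or FOXO3 was among them.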

How the results depend on the processing

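DESeq2 called 2 members (IRS1 and FOXO3) and limma voom 2 in middle against low, in the middle dose against both others and in the test of any difference, where edgeR called 0; DESeq2 called 10.3, 7.71 and 8.21% of all genes there and limma voom 34.5, 26 and 28.2%. Of the other pathway genes DESeq2 called 9, 4 and 6 in these comparisons and 3 in high against middle (2% of all genes), and limma voom 28, 20, 16 and 2 (2.45%). Leaving out 1 library at a time gave 0 to 2 members in those 3 comparisons, the 2 without middle replicate 3, and 0 to 13, 0 to 9, 0 to 5 and 0 to 1 (high against middle) other pathway genes. Without middle replicate 3, where these counts were highest, 17.3, 15.7, 9.34 and 3.66% of all genes were called. With the replicate number as a block, 0 members were called. Same-numbered libraries of different doses correlated at -0.53 to 0.38 after dose means were removed. Neither these values nor the labels settle whether such libraries share a goat or a batch.

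Signs turned as follows. Library size alone gave IGF2R -0.26 in high against low; INSR -0.84, IGF2R -0.56 and FOXO3 -0.15 in middle against low; INSR 0.16, IGF1R 0.54, IGF2R 0.30, IRS1 0.040 and FOXO3 0.28 in high against middle; and INSR -0.50, IGF2R -0.43 and FOXO3 -0.21 in the middle against the others. It gave GRB10 -0.23, CAV1 -0.32 and AKT1 -0.33 in middle against low, GRB10 -0.12 in the middle against the others and IGF2 0.062 in high against middle. There the median gene, in the order of comparisons above, was -0.32, -0.86, 0.56 and -0.71. With milk protein genes left out and library size alone, chosen after seeing the data, IGF2R was -0.076 in high against low, INSR -0.093 in middle against low and IGF1R 0.070 in high against middle. Limma voom gave IGF1R 0.22 and IGF2R -0.022 in high against low, and IGF1R 0.23 in middle against low and 0.12 against the others. IGF1R in the middle against the others was 0.0033 by DESeq2 size factors and by the DESeq2 test, 0.14 with table layout as a term and 0.20 in the 8 libraries of 1 layout. IGF1R in middle against low was 0.031 with layout as a term and 0.19 in those 8, and 0.0011 in high against middle with the replicate block. Leaving out 1 library moved IGF1R from -0.35 to 0.34 in high against low, -0.23 to 0.36 in middle against low, -0.35 to 0.18 in high against middle and -0.20 to 0.19 in the middle against the others, IGF2R from -0.034 to 0.10 in high against low, and INSR from -0.038 to 0.36 and FOXO1 from -0.28 to 0.23 in middle against low. FOXO1 there was 0.069 by limma voom and 0.29 in the 8 libraries of 1 layout. The causes were not tested. Members had 219 or more reads in every library.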
